A study of Homo sapiens with 8 samples.

Results

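Mucins and the secretory proteins that accompany them were followed through 4 lung cancer cell lines with 10 genes, namely MUC1, MUC5AC, MUC5B, MUC16, MUC13, AGR2, TFF1, TFF3, SFTPB and NAPSA. A probe set, the group of short oligonucleotides on the array that reads 1 transcript, was taken where its only gene symbol in the platform table was one of these genes, which gave 21 of 54675 probe sets. All 21 entered the tests, which were run over 41091 probe sets with 1 gene symbol. A549 and H460 carry mutated K-Ras and H1650 and H1975 carry mutated EGFR, and all are established lines derived from non-small cell lung cancers. From each line 2 populations were sorted by flow cytometry. The side population (SP) are cells whose efflux pumps, ABCG2 among them, clear Hoechst dye, and the main population (MP) are the remaining, stained cells. Total RNA of the sorted cells was hybridised to 8 arrays, 1 for the SP and 1 for the MP of each line. Levels are log2 MAS5 signals, on which a difference of 1 is a 2-fold difference, and levels of different probe sets are not compared with each other.

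Mucins are large glycoproteins whose long serine- and threonine-rich stretches carry dense O-linked sugars. The secreted gel-forming mucins build the mucus layer of the airway, while transmembrane mucins stand on the apical surface of epithelial cells. Goblet cells fold and pack gel-forming mucins with the help of AGR2, a protein disulfide isomerase of the endoplasmic reticulum, and release trefoil factors with them. Alveolar type 2 cells, in contrast, make surfactant, for which SFTPB encodes surfactant protein B and NAPSA the protease napsin A. MUC5AC and MUC5B are neighbours on chromosome 11, and TFF1 and TFF3 lie on chromosome 21 on both sides of TFF2. AGR2 lies next to AGR3 on chromosome 7.

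The 250 bases before the start site were at hand for 6 of the 10 genes (RefSeq, GRCh38.p14). The regions of AGR2, MUC13 and MUC1 are printed because these are the 3 of those genes whose levels differed between lines. Each is read 5′ to 3′ on the gene's own strand, the minus strand of the genome, at chr7:16805000-16805249 for AGR2, chr3:124934752-124935001 for MUC13 and chr1:155192916-155193165 for the first listed start of MUC1.
AGR2: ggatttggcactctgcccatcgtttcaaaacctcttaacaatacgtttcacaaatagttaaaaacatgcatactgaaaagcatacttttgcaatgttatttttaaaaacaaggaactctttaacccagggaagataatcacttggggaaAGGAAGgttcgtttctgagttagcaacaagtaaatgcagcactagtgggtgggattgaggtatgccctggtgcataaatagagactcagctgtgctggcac
MUC13: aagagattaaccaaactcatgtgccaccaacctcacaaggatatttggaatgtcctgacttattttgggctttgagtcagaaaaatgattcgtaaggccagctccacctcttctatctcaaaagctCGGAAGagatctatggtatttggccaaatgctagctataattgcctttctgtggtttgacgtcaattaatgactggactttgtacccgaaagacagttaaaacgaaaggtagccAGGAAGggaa
MUC1: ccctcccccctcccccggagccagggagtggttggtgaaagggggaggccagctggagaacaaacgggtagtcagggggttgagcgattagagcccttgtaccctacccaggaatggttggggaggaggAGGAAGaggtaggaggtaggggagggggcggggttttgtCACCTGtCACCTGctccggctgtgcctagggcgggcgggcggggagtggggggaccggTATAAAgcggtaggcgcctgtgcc
Capitals mark matches to 4 motifs that were searched on both strands and that did not overlap each other here. They were the ETS core (CGGAAG or AGGAAG), which 40.8% of 35116 such regions hold, the E-box CACCTG (17.5%), the TATA box TATAAA (10.7%) and the FOXA core TGTTTAC or TGTTTGC (6.1%). AGR2 held 1 ETS core, starting 101 bases before the start site. MUC13 held an ETS core 124 and another 10 bases before it. MUC1 held an ETS core at 121, an E-box at 82 and at 75, and a TATA box 24 bases before the start site. No FOXA core letters stood in these 3 windows. These are matches of letters and no measured sites. MUC5AC, MUC5B, TFF1 and TFF3 had no entry in the table.

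The median log2 signal of an array lay between 5.92 and 6.29, and a probe set is called dim on an array where it lay below that array's median. ABCG2, the transporter behind the dye efflux, was brighter in SP by 1.17 in H1975, by 1.08 in A549 and by 0.36 in H460 on the log2 scale, whereas in H1650 its SP minus MP difference was -0.70. For this gene the array labelled SP of H1650 was thus the dimmer one, and directions in H1650 are given for the arrays as labelled. The keratins KRT8, KRT18 and KRT19, which simple epithelia make, were above the median on all 8 arrays. EPCAM and CDH1, a surface glycoprotein and the cadherin of epithelial junctions, were low in H460, with 5.97 and 5.25 for EPCAM and 1.61 and 0.63 for CDH1 (SP, then MP). CLDN4, a tight junction protein, was high in H1650 (11.67 and 11.88) and H1975 (9.04 and 8.68) and dim in A549 and H460. Of the 5 measured leukocyte and blood genes PTPRC and CD3D were dim on all 8 arrays, CD3E was dim on 5 (3.36 to 6.43), and CD14 (7.39 to 9.42) and HBB (6.26 to 7.33) were at or above the median on all 8. CD14 and CD3E passed the F test between lines. Among the 8 measured fibroblast and endothelial genes COL1A2 was highest in H1975 (9.21 and 9.10), and COL3A1 (10.45 and 10.60) and LUM (10.27 and 10.53) in H460. COL1A1 (8.85 to 13.00, highest in H1975), DCN and PECAM1 were at or above the median on all 8 arrays. VWF was dim on all 8, and CDH5 was at or above the median on 1. The part of such genes in the results was not tested. In such bulk samples fewer cells that make a transcript and less transcript per cell cannot be told apart. The arrays of a line are its only samples, and the fit holds population as a term. The p-values between lines therefore rest on how far the SP minus MP difference varies between lines, and not on the spread between separate cultures.

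The question of the first comparison was how far the lines differ. In the limma F test over the 4 lines 13 of the 21 probe sets passed, 61.9%, against a background of 47.2% of all probe sets tested. By the brightest probe set of each gene 6 of 10 passed, 60.0%, against 52.9% of 19775 genes. These shares lie not far above the background. With only the 12 probe sets at or above the median signal tested, 8 passed, and with only the brightest of each gene among them, 5 of 7. Without both arrays of A549 6 of 21 passed, and the genes called were then MUC1, AGR2 and TFF1. The spread between lines was wider, with a median range of line means of 3.19 on the log2 scale over the 21 probe sets and of 1.36 over all probe sets. MUC1, MUC5AC, MUC5B, MUC13, AGR2 and TFF1 passed, and MUC16, TFF3, SFTPB and NAPSA did not. The plot of every probe set by line shows the 3 kinds of pattern: high in A549 and dim elsewhere, graded over the lines, and without a difference past the threshold.

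**Figure D1:**
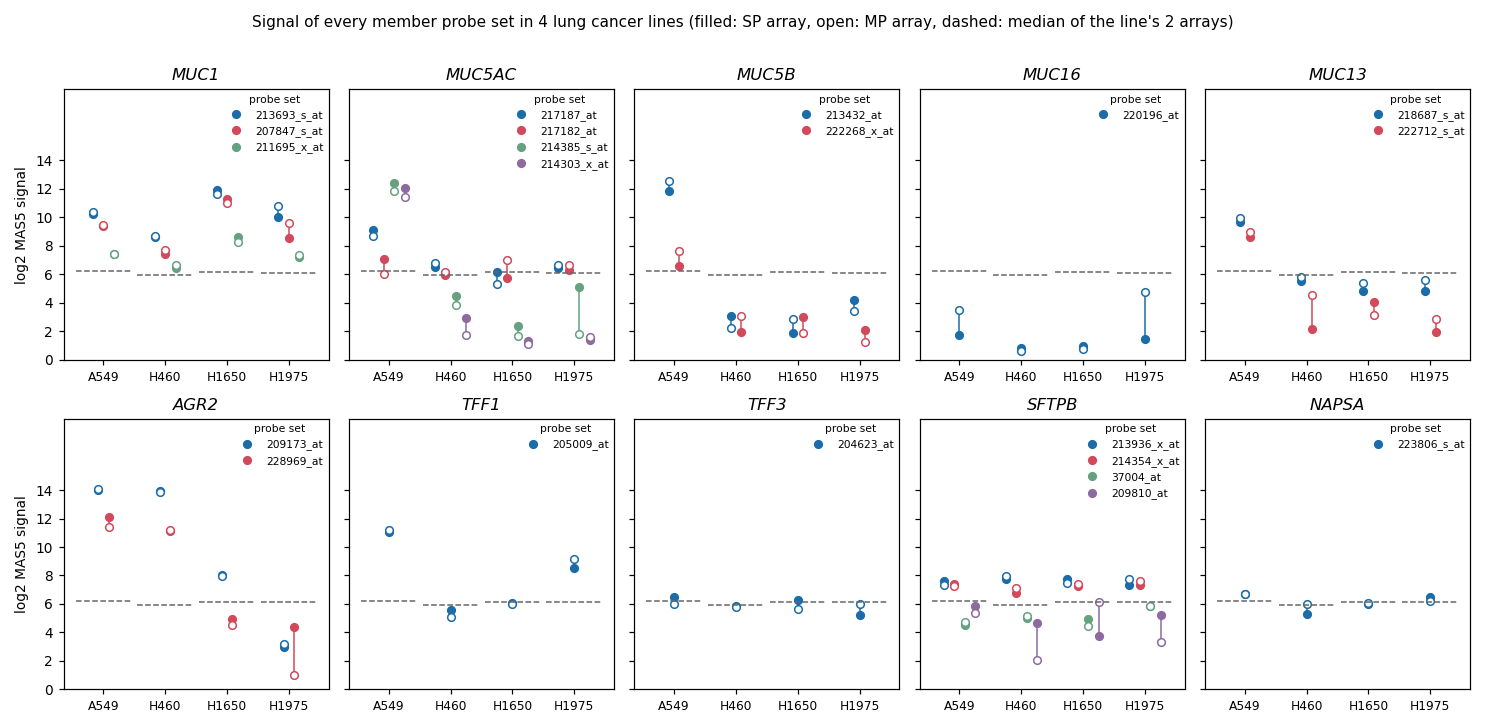
Log2 MAS5 signal (y axis) of all 21 probe sets in the 4 lines (x axis), 1 panel per gene and 1 colour per probe set. Filled points are SP arrays, open points MP arrays, lines join the 2 arrays of a line and dashes mark the mean of their medians. MUC5B and MUC13 lie above the dashes in A549 and below them in the other 3 lines, and AGR2 209173_at runs from 14.02 (mean of A549) to 3.07 (mean of H1975). The 2 brighter probe sets of SFTPB, both with the ending _x_at, stay between 6.80 and 7.97 in every array, and its 2 others are dim on most arrays.

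The gel-forming mucins were high in A549. MUC5AC, the mucin that goblet cells of the airway surface secrete, read 12.43 in SP and 11.88 in MP of A549 with probe set 214385_s_at. The same probe set read 4.51 and 3.88 in H460, 2.39 and 1.70 in H1650, and 5.13 and 1.80 in H1975. The A549 arrays did not overlap with any of the other 6, which were all dim.
A549 was therefore at least 74.5-fold higher than H460 (limma, adjusted p = 0.00024), at least 64.2-fold higher than H1650 (adjusted p = 6.83e-05) and at least 65.2-fold higher than H1975 (adjusted p = 0.000111). For such bounds the dim line was set to its array medians, since MAS5 signals below them have no firm order. The p-value beside a bound is that of the difference between the signals as read, dim ones included, and not of the bound. Probe set 214303_x_at read 12.06 and 11.43 in A549 and between 1.15 and 2.91 on the other 6 arrays. That put A549 at least 56.2-fold above H460, 48.4-fold above H1650 and 49.2-fold above H1975. Probe set 217187_at gave a smaller difference, with 9.14 and 8.70 in A549, 6.53 and 6.79 in H460, 6.16 and 5.30 in H1650, and 6.44 and 6.66 in H1975. There A549 exceeded the next line, H460, by 2.26 on the log2 scale (SE 0.37, adjusted p = 0.00363). The fourth probe set, 217182_at, lay between 5.75 and 7.07 on all arrays and did not pass the F test (adjusted p = 0.867). Its signals correlated with those of the other 3 over the 8 arrays with r between 0.13 and 0.21, whereas the other 3 correlated among themselves with r between 0.945 and 0.968.

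MUC5B, the gel-forming mucin of submucosal glands and small airways, was highest in A549 as well. Probe set 213432_at read 11.83 and 12.54 in A549 (SP, then MP), 3.08 and 2.23 in H460, 1.89 and 2.86 in H1650, and 4.19 and 3.46 in H1975. All 6 arrays outside A549 were dim and lay far below both A549 arrays.
A549 was at least 76.3-fold higher than H460 (limma, adjusted p = 4.77e-05), at least 65.8-fold higher than H1650 (adjusted p = 3.91e-05) and at least 66.9-fold higher than H1975 (adjusted p = 6.21e-05). The dimmer probe set 222268_x_at read 6.59 and 7.67 in A549 and between 1.25 and 3.09 elsewhere, which allowed bounds of 2.29-fold, 1.97-fold and 2.01-fold against H460, H1650 and H1975. MUC5AC and MUC5B are paralogs with repeats that resemble each other, and probe sets whose name ends in _x_at hold probes that can match other transcripts, so a part of the signal of either gene could come from the other. The 213432_at signal of MUC5B, without that ending, showed the difference as well. For MUC5AC, 214385_s_at and 217187_at, also without that ending, put A549 at least 74.5-fold and 4.79-fold above H460. MUC5AC 217182_at, without it too, did not pass the F test (limma, adjusted p = 0.867). Whether probes of either gene match the other was not tested, and the endings do not settle it.

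Among the transmembrane mucins, MUC13, a mucin of the gut and airway surface, was again high in A549. Probe set 218687_s_at read 9.66 and 9.99 in A549, 5.55 and 5.82 in H460, 4.83 and 5.39 in H1650, and 4.83 and 5.60 in H1975. The 6 arrays of the other lines were dim and overlapped with each other.
A549 was at least 14.9-fold higher than H460 (limma, adjusted p = 0.000141), at least 12.8-fold higher than H1650 and at least 13.1-fold higher than H1975. Probe set 222712_s_at, with 8.62 and 8.96 in A549 and 1.99 to 4.54 elsewhere, gave bounds of 7.23-fold, 6.23-fold and 6.33-fold in the same order. Of the 8 probe sets of MUC5AC, MUC5B and MUC13, 7 passed in all 3 pairs of lines that include A549, and 0 passed in the 3 pairs that do not. Of all probe sets, 20.8% to 28.6% passed in a single pair with A549 and 26.5% to 31.0% in a single other pair. The 3 genes were set together here after their levels were seen, so the count only describes them.

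MUC1, the transmembrane mucin of most glandular epithelia and a known tumour antigen, was graded over the lines and above the median on all 8 arrays. Probe set 213693_s_at read 11.93 and 11.66 in H1650 (SP, then MP), 10.03 and 10.82 in H1975, 10.26 and 10.35 in A549, and 8.60 and 8.68 in H460. H1650 lay above and H460 below all other arrays, and A549 fell within the span of H1975.
H1650 was 2.58-fold higher than H1975 (log2 difference 1.37, SE 0.23, limma adjusted p = 0.00343). H1975 and A549, neighbours in this order, differed by 0.12 (SE 0.23, adjusted p = 0.762), and A549 was 3.18-fold higher than H460 (adjusted p = 0.00168). Between the ends of the order, H1650 was 8.93-fold higher than H460 (adjusted p = 4.23e-05). The 2 other probe sets placed H1650 first and H460 last as well, with 12.0-fold (207847_s_at) and 3.72-fold (211695_x_at) between them. All 3 correlated over the 8 arrays with r from 0.968 to 0.985. MUC16, whose shed part is the serum marker CA-125, was dim on all 8 arrays, between 0.64 and 4.76, and did not pass (adjusted p = 0.20).

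AGR2 was high in both A549 and H460. Probe set 209173_at read 13.99 and 14.04 in A549, 13.94 and 13.88 in H460, 8.06 and 7.93 in H1650, and 2.95 and 3.20 in H1975. The 2 arrays of a line lay within 0.25 of each other, and H1975 was dim.
A549 and H460 differed by 0.11 on the log2 scale (SE 0.15, limma adjusted p = 0.694). H460 was 60.4-fold higher than H1650 (log2 difference 5.92, SE 0.15, adjusted p = 9.98e-07), and H1650 was at least 3.65-fold higher than H1975 (adjusted p = 2.33e-06). Against H1975 the bounds were 238-fold for A549 and 221-fold for H460. Probe set 228969_at read 12.09 and 11.40 in A549, 11.16 and 11.17 in H460, and between 1.04 and 4.92 in H1650 and H1975, where it was dim. It placed A549 at least 48.4-fold and H460 at least 32.4-fold above H1650. H460, in which AGR2 was as bright as in A549 within the spread, was dim on both arrays for MUC5B, MUC13 and TFF1.

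The trefoil factor TFF1, a small peptide released with mucus, read 11.05 and 11.18 in A549, 8.53 and 9.19 in H1975, 6.04 and 6.00 in H1650, and 5.58 and 5.11 in H460. A549 and H1975 stood apart from each other and from the dim H1650 and H460.
A549 was 4.78-fold higher than H1975 (log2 difference 2.26, SE 0.29, limma adjusted p = 0.00088). H1975 was at least 6.54-fold higher than H1650 (adjusted p = 0.000337) and at least 7.59-fold higher than H460 (adjusted p = 8.76e-05), and H1650 and H460 did not differ past the threshold (log2 difference 0.68, SE 0.29, adjusted p = 0.126). TFF3, its relative, lay between 5.21 and 6.48, close to the array medians, and did not pass (adjusted p = 0.692). Its highest and lowest lines, A549 and H1975, differed by 0.64.

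The surfactant genes did not pass the test. SFTPB, by its brightest probe set 213936_x_at, read 7.60 and 7.35 in A549, 7.79 and 7.97 in H460, 7.79 and 7.50 in H1650, and 7.34 and 7.77 in H1975. Both H460 arrays lay above those of A549 and H1975, H1650 overlapped with each other line, and the probe set did not pass the F test (adjusted p = 0.601).
The adjusted p of the other 3 probe sets of SFTPB were 0.419 (214354_x_at), 0.22 (37004_at) and 0.388 (209810_at). These probe sets did not follow each other, with r between -0.81 and 0.22 over the 8 arrays. The 2 brighter ones, 213936_x_at and 214354_x_at, carry the ending _x_at, so a part of their signal could come from other transcripts. Of the 2 without it, 37004_at was dim throughout and 209810_at was at or above the median on 1 array only. With linear signals raised to at least 32, 37004_at passed (limma, adjusted p = 0.00307), as did 209810_at without the SP array of H1650 (adjusted p = 0.0447). NAPSA read 6.70 and 6.73 in A549, 5.30 and 5.98 in H460, 6.02 and 6.07 in H1650, and 6.46 and 6.22 in H1975, near the array medians. Both A549 arrays lay above the other 6, and A549 was 2.10-fold higher than H460, which did not pass (limma, adjusted p = 0.0989, F test 0.192).

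By pair of lines, A549 stood highest most often. Of the 21 probe sets, 10 were higher in A549 than in H460 and 0 lower, against 20.8% of all probe sets called in either direction. Against H1975 A549 was higher for 10 and lower for 0 (background 28.6%), and against H1650 it was higher for 10 and lower for the 3 probe sets of MUC1 (background 26.3%). These are counts of probe sets, several of which read the same gene. By the brightest probe set of each gene, A549 was higher than H460, H1650 and H1975 for 5 of the 10 genes each, and lower than H1650 for 1. H460 was higher than H1650 for the 2 probe sets of AGR2 and lower for the 3 of MUC1 (background 31.0%). H460 was higher than H1975 for AGR2 and lower for TFF1 and 2 probe sets of MUC1 (5 in all, background 30.2%). H1650 was higher than H1975 for the 3 of MUC1 and 1 of AGR2 and lower for TFF1 (background 26.5%). The 3 pairs without A549 had 5 calls each, 23.8% of the probe sets, which is below the background.

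Other genes of the secretory pathway were taken as 5 lists of 62 measured genes, of which 39 passed the F test by their brightest probe set, 62.9% against 52.9% of all genes. Of the regulators of goblet and secretory cells 9 of 11 passed. SPDEF, an ETS factor that drives goblet cell differentiation, read 10.03 and 9.94 in A549, 7.39 and 6.93 in H460, 7.16 and 3.90 in H1650, and 5.65 and 6.23 in H1975 (limma, F adjusted p = 0.00659). FOXA3, a forkhead factor linked to goblet cells, read 8.72 and 8.28 in A549 and was dim elsewhere, from 2.21 to 5.65 (adjusted p = 0.00125). EHF, an epithelial ETS factor, read 12.26 and 12.31 in A549, and 2.84 to 6.16 elsewhere (adjusted p = 0.000171). These 3 factors had their highest line mean in A549. Among the 9 that passed, the highest mean was in A549 for 4, in H1975 for 4 and in H460 for 1.
FOXA1, a forkhead factor of endoderm, read 9.03 and 9.19 in H460, 7.53 and 8.25 in A549, 6.34 and 6.63 in H1650, and 2.27 and 3.12 in H1975 (adjusted p = 2.34e-05). It shared with AGR2 the low place of H1975. CREB3L1, a membrane-bound transcription factor of secretory cells, was highest in H1975 with 10.53 and 11.02 (adjusted p = 3.83e-05). FOXA2 and NKX2-1, the lung lineage factor, were dim on all 8 arrays and did not pass (adjusted p = 0.292 and 0.355).

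The enzymes that build mucin sugars differed in many directions, and 14 of 17 passed. GCNT3, which branches the sugar core of mucins, read 12.97 and 12.58 in A549 and 5.72 to 7.44 elsewhere (limma, F adjusted p = 3.15e-06). GALNT3, which adds the first sugar, read 12.86 and 12.82 in H1650 and 4.50 to 7.94 elsewhere (adjusted p = 1.14e-05). GALNT6, an enzyme of the same family, read 10.52 and 9.93 in H1650, 8.40 and 7.68 in A549, 7.66 and 8.30 in H1975, and 1.84 and 0.44 in H460 (adjusted p = 1.84e-05). The highest line mean among the 14 was in H1650 for 5 of them, in A549 for 4, in H460 for 3 and in H1975 for 2.
Of the other mucins 4 of 10 passed. MUC15, a transmembrane mucin, read 10.36 and 10.40 in H1650 and at most 1.96 elsewhere (adjusted p = 7.3e-05). MUC12 was above the median in A549 alone, with 6.89 and 6.78 (F adjusted p = 0.006), but A549 did not pass against H1650 (limma, adjusted p = 0.102). MUC17 was above the median in H1975 alone, with 6.55 and 6.94 (F adjusted p = 0.00469). There H1975 did not pass against H460 (limma, adjusted p = 0.139) or H1650 (0.198). A549 had the lowest mean of MUC17 (3.28) and passed against each other line. MUC17 was dim in A549, H460 and H1650, so the order of these lines is not firm.

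Other airway products passed in 7 of 15 cases. SLPI, a secreted inhibitor of neutrophil elastase, read 13.96 and 13.83 in H1650, 12.95 and 13.19 in A549, 10.57 and 12.30 in H1975, and 7.74 and 7.51 in H460 (limma, F adjusted p = 4.98e-05). LCN2, the iron-scavenging lipocalin, read 12.45 and 13.24 in A549, 11.42 and 11.18 in H1650, 7.73 and 10.06 in H1975, and 3.98 and 5.56 in H460 (adjusted p = 4.13e-05). BPIFB1, an airway defence protein of goblet cells, was above the median in A549 alone, with 8.90 and 7.13 (adjusted p = 0.00101).
Of the alveolar type 2 genes 5 of 9 passed. CTSH, a protease that processes surfactant protein B, read 12.56 and 12.41 in H1650, 10.16 and 10.52 in A549, 9.69 and 9.47 in H1975, and 5.67 and 6.27 in H460 (adjusted p = 3.66e-06). LAMP3, a membrane protein of lamellar bodies, was highest in H1650 with 8.88 and 8.87 (adjusted p = 0.000232), and SFTPD, surfactant protein D, was above the median in H1650 alone with 6.97 and 6.35 (adjusted p = 0.00156). Among the 5 that passed, the highest mean was in H1650 for these 3 and in H1975 for 2, ABCA3 and LPCAT1. ABCA3 read 10.19 on both arrays of H1975 and was lowest in H1650, with 6.50 and 6.29 (limma, F adjusted p = 2.18e-05). LPCAT1 read 13.06 and 13.23 in H1975 and 12.87 and 12.90 in H1650 (F adjusted p = 3.05e-05). The heat map sets these line means, without those of ABCA3 and LPCAT1, beside those of the 10 genes.

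**Figure D2:**
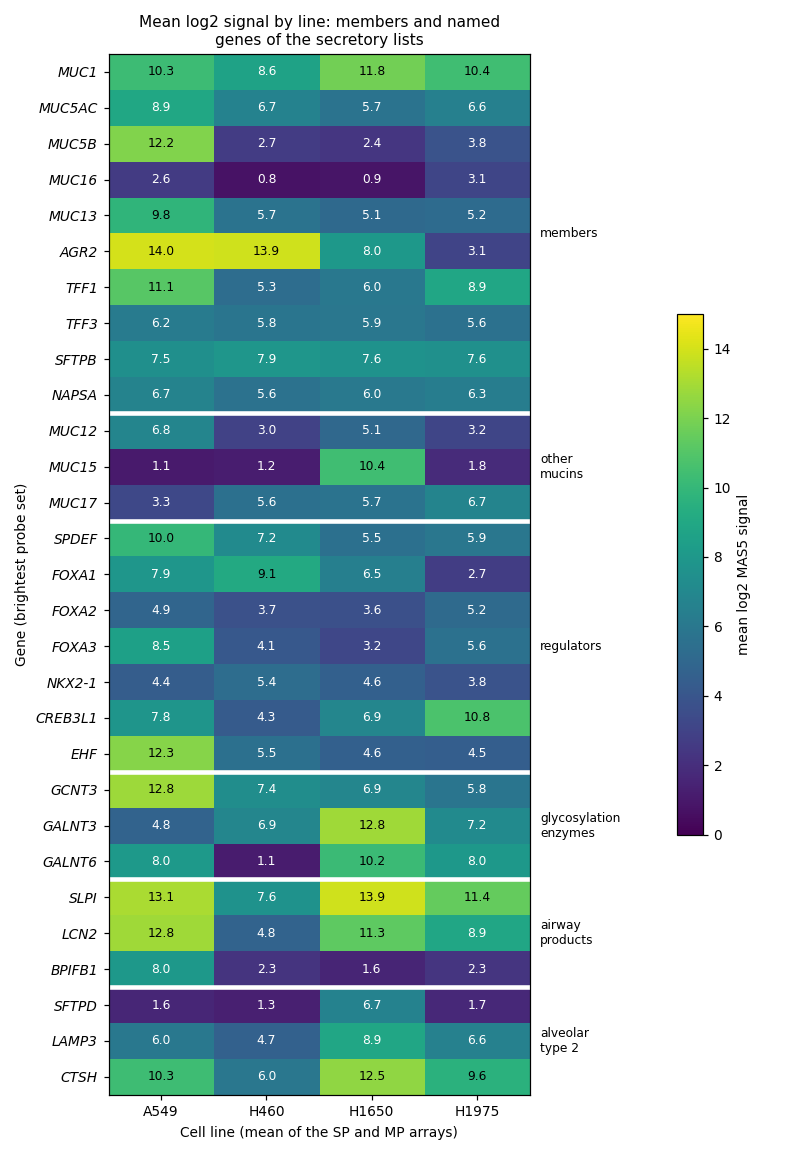
Mean log2 MAS5 signal of the SP and MP arrays of each line (columns, colour scale from 0 to 15) for the 10 genes and the genes of the 5 lists named by rule (rows, brightest probe set of each gene). MUC5B, MUC13, FOXA3, EHF, GCNT3 and BPIFB1 have their bright cell in A549, MUC15, GALNT3 and SFTPD in H1650, and AGR2 is bright in A549 and H460.

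The genes whose brightest probe set ran most like that of a member over the 8 arrays are given as a description, since the 2 arrays of each line share its cells. For AGR2 they were ELOVL2, a fatty acid elongase, and EVA1C (r = 0.998 each). For MUC1 they were PGM1, a phosphoglucomutase, and PRKCZ, an atypical protein kinase C (both 0.990). For MUC5AC, by 217187_at, they were RAB36 (0.993) and SYNPO2 (0.981), and for MUC5B ZNF595 (0.995) and the matrix metalloproteinase MMP7 (0.993). For MUC13 they were IL1R2, a decoy receptor of interleukin-1 (0.993), and PDCD6IPP2 (0.992), and for TFF1 MMP28 (0.989) and CA11 (0.987). They were drawn from 2829 or 2830 genes at or above the median signal with a range of line means of at least 2.

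The second comparison asked whether SP and MP differ. Over the 4 lines 0 of the 21 probe sets passed, as did 0% of all probe sets. Without adjustment 1582 of all probe sets and 1 of the 21, MUC5AC 214385_s_at, had a p under 0.05. Mean log2 differences of SP minus MP (± SD, n = 4 lines) were -0.17 ± 0.45 for MUC1, 0.20 ± 0.55 for MUC5AC 217187_at and -0.03 ± 0.95 for MUC5B 213432_at. They were -0.03 ± 0.16 for AGR2 209173_at, -0.07 ± 0.46 for TFF1 and 0.12 ± 0.62 for TFF3. They were -0.02 ± 0.35 for SFTPB and -0.13 ± 0.39 for NAPSA. The SD exceeded the mean for each of these 8 genes, and the limma 95% interval of AGR2 209173_at ran from -0.28 to 0.22 and that of MUC1 from -0.55 to 0.21. The means of MUC5AC 214385_s_at (1.30 ± 1.35) and AGR2 228969_at (1.10 ± 1.52) were larger, and neither passed. MUC5AC 214385_s_at was higher in SP in 4 of 4 lines but dim outside A549. AGR2 228969_at was higher in SP in 3 lines and dim in H1650 and H1975. MUC13 218687_s_at was lower in SP in 4 of 4 lines, by 0.77 in H1975, 0.56 in H1650, 0.33 in A549 and 0.26 in H460, but did not pass (mean -0.48 ± 0.23, adjusted p = 0.956), and the pair was above the array medians in A549 alone. Its other probe set, 222712_s_at, was lower in SP in 3 lines and higher in H1650 by 0.95, where it was dim. MUC16 differed by -1.15 ± 1.73 with all arrays dim.

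Within a line, SP and MP are 1 array each, so no test exists and only sizes are given. Counts cover probe sets with a ratio of 2-fold or more whose pair had a mean at or above the array medians. In A549 18 of the 21 probe sets were so measured. MUC5AC was higher in SP in all 4 probe sets, by 0.44 (217187_at), 1.04 (217182_at), 0.55 (214385_s_at) and 0.63 (214303_x_at) on the log2 scale. MUC5B was lower in SP in both, by 0.72 (213432_at) and 1.08 (222268_x_at). The gel-forming mucins thus lay on opposite sides in this pair of arrays, and 1 probe set of each reached 2-fold. With a pseudocount of 16 on the linear signal neither did, and with quantile normalization 217182_at of MUC5AC did not. That probe set did not follow the other 3 of MUC5AC over the 8 arrays (r between 0.13 and 0.21) and was dim in MP of A549 (6.03). The backgrounds in A549 were 2.56% of probe sets at least 2-fold higher and 1.12% at least 2-fold lower in SP. AGR2 differed by -0.05 with 209173_at and by 0.69 with 228969_at there, the latter more than 3 of the 4 MUC5AC differences. MUC1 213693_s_at differed by -0.09 and TFF1 by -0.13.

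In H460 9 probe sets were measured and 0 reached 2-fold (background 1.75% higher and 0.700% lower). In H1650 7 were measured (background 1.02% higher and 1.40% lower). MUC5AC 217182_at was lower there in the array labelled SP by 1.24, opposite to its side in A549, and was dim on that array. This difference fell short of 2-fold with quantile normalization. In H1975 9 were measured, and MUC1 207847_s_at was lower in SP by 1.09 (background 1.51% higher and 1.77% lower). The other probe sets of MUC1 were lower in SP there by 0.79 (213693_s_at) and 0.16 (211695_x_at), and TFF1 was lower by 0.66.
The difference of the SP effect between H1975 and the other 3 lines was -0.83 for MUC1 213693_s_at (SE 0.25, limma adjusted p = 0.946) and did not pass. For each of the 4 lines the test of its SP effect against the other 3 called 0 of the 21 probe sets and 0% of all. Without adjustment 2053 probe sets had a p under 0.05 for A549, 1592 did for H460, 3553 for H1650 and 2107 for H1975, among them 1, 0, 1 and 4 of the 21.

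**Figure D3:**
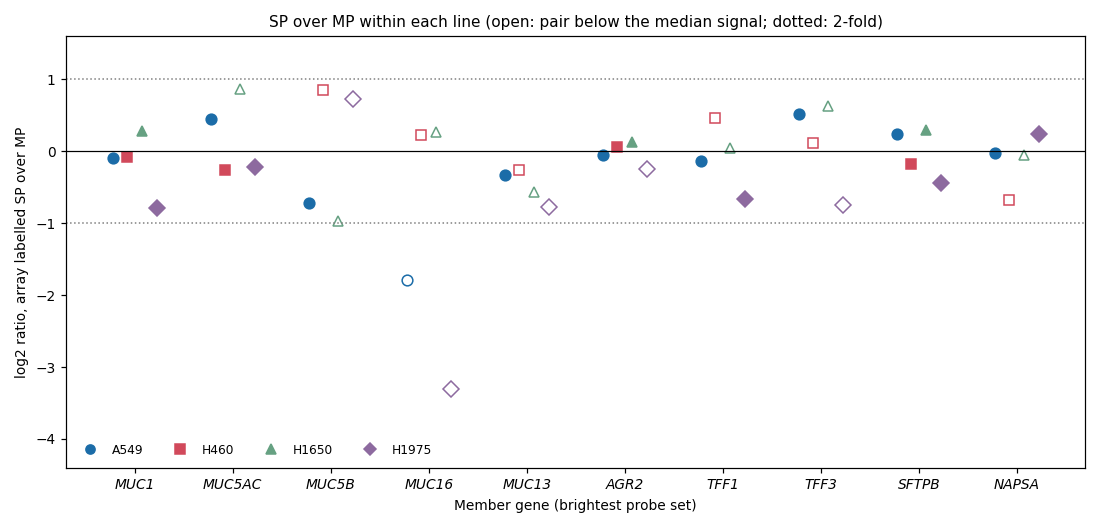
Difference in log2 signal between the arrays labelled SP and MP of a line (y axis) for the brightest probe set of each of the 10 genes (x axis), 1 symbol per line. Filled symbols are pairs at or above the array medians, open symbols pairs below them, and dotted lines mark 2-fold. All filled symbols lie within 2-fold, and the 2 ratios beyond it belong to MUC16, which was dim on all arrays.

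In H1975, of 6 measured genes of the list of other airway products 3 were at least 2-fold lower in SP, against 1.56% of all genes, namely SLPI by 1.73, LCN2 by 2.33 and WFDC2, a whey acidic protein of airway epithelium, by 1.56 on the log2 scale. The other 3 were LTF (-0.81), ERN2 (-0.0033) and PIGR (0.0144). Of 13 measured glycosylation enzymes 1, GALNT3, was lower by 1.53, and of 7 measured alveolar type 2 genes 1, the phosphate transporter SLC34A2, by 1.89. In A549 3 of 8 measured other airway products were at least 2-fold higher in SP, against 2.32% of all genes. They were BPIFA1 by 1.39, BPIFB1 by 1.77 and ERN2, a stress sensor of mucus-secreting cells, by 1.66. The others were AGR3 (0.40), WFDC2 (0.27), PIGR (-0.06), SLPI (-0.24) and LCN2 (-0.79). Of 6 measured alveolar type 2 genes 1, PGC, was at least 2-fold lower in SP of A549 (-1.02), against 1.10% of all genes. In H460 1 of 4 measured airway products, ERN2, was at least 2-fold higher in SP (1.11), against 1.28%. GATA6, an endoderm factor, was higher in SP in A549 (1.40), H460 (1.50) and H1975 (1.17) and lower in the array labelled SP in H1650 (-1.14). SLC34A2 was dim in SP of H1975 (5.42), BPIFA1 in MP of A549 (5.83), PGC in SP of A549 (6.00) and GATA6 in MP of H460 (5.88), so these differences have no firm size. The ERN2 probe set ends in _x_at, and in MP of A549 it read 6.22, close to the array median of 6.14. WFDC2, LTF, PIGR, AGR3, PGC, SLC34A2, BPIFA1, ERN2 and GATA6 were picked out after their values were seen, and each of these values rests on 1 pair of arrays.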

How the data were processed

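Affymetrix Human Genome U133 Plus 2.0 arrays were hybridised with RNA of sorted SP and MP cells of 4 lines, 8 arrays. The authors deposited signals on the log2 scale, made with MAS5 (GCOS 1.4 by the submitters' processing notes, Expression Console by the study's methods). No centring of genes, which the methods mention, is seen in them, and the 2% trimmed mean of the linear values is 500.1 on each array. Detection calls were not used here, so the array median marks dim signal. The number of arrays limits the precision.

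Of the probe sets, 41097 had 1 gene symbol in the platform annotation, 1801 several and 11777 none; 6 controls were left out of the first. Limma 3.58.1 in R 4.3.3 (lmFit, eBayes with trend) was fitted to 41091 probe sets with line and population as terms, and p-values were Benjamini-Hochberg adjusted over all of them with a threshold of 0.05. The fit was tested on simulated data. The cell line pairs the arrays, since both populations were sorted from it, and after subtraction of each population's mean its SP and MP arrays correlated (r between 0.57 and 0.65). Bounds set a dim line to its array medians, while the p-values beside them come from the fit to the signals as read.

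The members and lists were chosen with earlier results of these data known. All members were named, with SPDEF, NKX2-1, FOXA2, FOXA3 and up to 3 genes of each list with the widest line means among those past the F test, and 2 genes most like each member. Lists of epithelial, leukocyte, and fibroblast and endothelial markers were measured for 7, 5 and 8 genes, of which 7, 2 and 5 passed the F test. Alternatives were a linear signal raised to at least 32 or with 16 added, quantile normalization, equal medians, a filter at the median signal of 6.01, the brightest probe sets, no trend, no population term, no block, leaving out arrays or lines, and exchanging the labels of H1650. The count between lines without each line was added after seeing the data. KRT8, KRT18, KRT19, PTPRC, CD3D, HBB, COL1A1, DCN, PECAM1, VWF, CDH5, ABCA3 and LPCAT1 were named outside the rule.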

Additional observations from a re-analysis of the deposited data

Results flagged for a closer look

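In 7 of 63 groups of 4 arrays or 4 ratios, 1 value lay farther from the rest than Dixon's 95% critical value allows, and chance gives about 1 in 20. In 6 of them the far value was the level in A549, namely MUC5AC 217187_at at 9.14 in SP, MUC5AC 214303_x_at at 12.06 in SP and 11.43 in MP, MUC5B 213432_at at 12.54 in MP, and MUC13 218687_s_at at 9.66 in SP and 9.99 in MP. The 7th was the SP over MP log2 ratio of MUC5AC 214385_s_at in H1975, 3.33, where both arrays were dim.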

How the results depend on the processing

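The log2 difference between the highest and the lowest line kept its side of the threshold in 154 of 154 refits of the 10 genes and its direction in 153. The exception was MUC16, whose H1975 minus H460 difference was 0 with the floor of 32, since both lines lay at it. The highest and lowest lines were picked from these same values. Leaving out an array of another line does not change the difference itself, so such refits say little of its direction. The count of probe sets that differed between lines, 13 of 21, fell to 8 of 12 with the filter at the median signal and to 5 of 7 with the brightest probe sets and that filter, where fewer were tested, and leaving out 1 array gave 12 to 14. Leaving out a whole line, which was added after seeing the data, gave 6 without A549 (in MUC1, AGR2 and TFF1) and 12 or 13 without any other. Calls over the 6 pairs, 48, became 21 with the brightest filtered probe sets and 45 to 49 without 1 array. With a floor of 32 SFTPB 37004_at was called as well (limma, adjusted p = 0.00307), and without the SP array of H1650 SFTPB 209810_at (adjusted p = 0.0447). SP against MP called 0 under every alternative, also with no replicate block, and a SP effect that differed in 1 line was called for 1 probe set, MUC5B 222268_x_at, with the floor alone. Within lines, the 1 probe set higher in SP in A549 became 0 with the pseudocount and with quantile normalization, the 1 lower in A549 became 0 with the pseudocount, and the 1 lower in H1650 became 0 with quantile normalization. The mean SP minus MP differences, none of which passed, changed sign in 18 of 124 refits. With H1650 exchanged they became -0.23 for MUC5AC, 0.46 for MUC5B and -0.19 for TFF3. Without H1650 they became -0.0164, 0.29 and -0.0410 in the same order, and without A549 0.21 for MUC5B and -0.0053 for TFF3. Without H1975 they became 0.0357 for MUC1, 0.0454 for AGR2, 0.13 for TFF1 and 0.12 for SFTPB, and without H460 0.0310 for SFTPB and 0.0531 for NAPSA. With quantile normalization they became 0.12 for MUC5B and 0.0650 for AGR2, and AGR2 became 0.0340 with the floor and 0.0106 with the pseudocount. The causes were not tested. Signals below the array median limit every ratio that involves them.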
